A study of Mus musculus with 10 samples.

Results

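Switch exons are alternative exons whose junction signal favours inclusion in one tissue and skipping in another, and 74 of them were found in transcripts whose flanking exons passed a level floor in all 10 tissues examined. They were drawn from 3126 alternative splicing events of the mouse, measured on a microarray that carries probes to exon bodies and to splice junctions. An event counted as broadly expressed when both flanking exons, C1 and C2, read 2.1 or more in every tissue, and 656 events met this. That floor lies near the median of the arrays (2.04 to 2.19 as deposited) and below the 95th percentile of a set of probes marked INT (2.82 to 3.48), so passing it does not by itself show that a transcript was detected. The lowest flank reading of the switch exons had a median of 2.38, and 4 of the 74 had both flanks above that percentile of the array in every tissue. Of all 656 broadly expressed events, 70 did. Among the 656 events, 74 had a junction index of 0.5 or more in at least 1 tissue and of -0.5 or less in at least 1 other, which is 11.3% of the broadly expressed events. The members were thus chosen by their measured junction index, so their index values are given as a description. At any transcript level, 545 of the 3126 events met both index limits, or 17.4%. The index is the mean of the inclusion junctions C1:A and A:C2 minus the skipping junction C1:C2, where A is the alternative exon. The tissues were testis, brain, liver, kidney, heart, muscle, intestine, salivary, lung and spleen of mice of the outbred CD1 strain, with no treatment named in the labels, and each was 1 sample of pooled total RNA.

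Alternative splicing joins the exons of one gene in different ways, so that a cassette exon is kept in some mature transcripts and left out of others. RNA-binding proteins that differ between tissues bind in or near such exons and favour or block their use, and brain, heart, skeletal muscle and testis are known for tissue-regulated splicing. An exon that switches in a transcript made everywhere lets tissues that share a gene make different products from it. The table identifies events by number, and gene names and exon sequences were not used here, so events are called by their numbers (Ben1 onwards) and the tissue labels were not checked against marker genes.

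Values are given in units of the deposited scale, which is compressed and log-like with no stated base, after the median of every array had been brought to a common value. No difference is a fold. "Included" below means an index of 0.5 or more and "skipped" an index of -0.5 or less. Since different probes respond differently, the zero of the index does not mark equal use of both forms. A difference of the index between tissues compares the same probes. With 1 sample per tissue there was no replicate, no p-value was computed, and all counts describe these 10 arrays. In a pooled tissue sample, a change of splicing within a cell type and a change in the mix of cell types cannot be told apart. The share of probes listed at 0 ran from 0.635% in kidney to 3.33% in salivary. The muscle and spleen arrays stood apart from the rest in the INT probes, whose target the sources used here do not describe. Across broadly expressed events the centred INT values of these arrays correlated at r = 0.61, against 0.40 for lung and salivary, the next pair. This is across events of shared arrays and is a description.

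The 74 exons gave 195 inclusions, 199 skippings and 346 values between the limits over the 10 tissues. By this index, testis and brain included the most. Testis included 29 switch exons (39.2%), against 47.7% of all broadly expressed events, and brain 28 (37.8%), against 44.8%. Liver included 26 (35.1%, against 48.9%), heart 20 (27.0%, against 34.8%), kidney 18 (24.3%, against 45.7%) and salivary 18 (24.3%, against 36%). Intestine included 17 (23.0%, against 40.2%), lung 15 (20.3%, against 38.7%), and muscle and spleen 12 each (16.2%, against 38.4% in either). This order depended on the settings: liver included the most, at 40.2%, with A:C2 alone for inclusion (testis 33.3%, brain 28.4%), at 47.5% with limits of 0.3 and at 50% with junctions above the 95th percentile of INT. The switch exons were below the background share of inclusion in every tissue. A lower share is built into the rule, since an exon that is included everywhere cannot be a member. Over the tissues, 12 to 29 of the 74 switch exons were included, or 16.2% to 39.2%, against 34.8% to 48.9% of all broadly expressed events. The rule selected on the same index and the switch exons are far fewer, so nothing is read from the wider range.

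Salivary skipped the most, 27 switch exons (36.5%), against 26.8% of all broadly expressed events. With limits of 1 it skipped 10.5%, fewer than muscle and testis at 31.6% each, and with C1:A alone 25.7%, fewer than brain and spleen at 33.8% each. By the rule every switch exon is skipped in at least 1 tissue, whereas 183 of the other 582 events were. A higher share of skipping is thus favoured in advance, and nothing is read from it. Lung skipped 23 (31.1%, against 25.3%), spleen 23 (31.1%, against 25.3%) and testis 21 (28.4%, against 23.8%). Heart skipped 19 (25.7%, against 23%), intestine 19 (25.7%, against 25.5%) and muscle 19 (25.7%, against 22.3%). Brain skipped 18 (24.3%, against 22.4%), kidney 15 (20.3%, against 23%) and liver 15 (20.3%, against 23.2%). Brain and liver thus lay on the including side more often than on the skipping side, whereas lung, salivary, spleen and muscle were more often on the skipping side. Testis was frequent on both. The median index over the 74 exons was highest in testis, at 0.29, followed by 0.24 in liver and 0.20 in brain, and it was lowest in salivary, at -0.27. Salivary is also the array with the largest share of probes at 0, and the part of that in its skipping count was not tested.

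**Figure D1:**
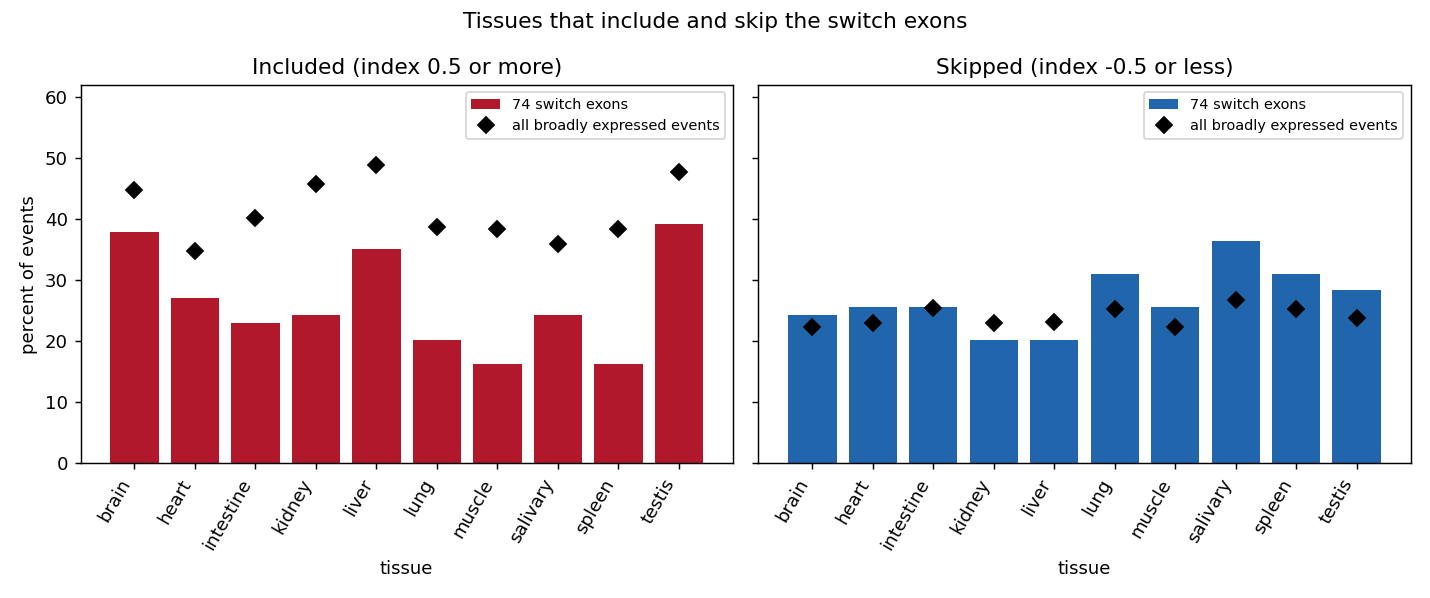
Percent of events (y axis) included, left, and skipped, right, in each of the 10 tissues (x axis, 1 sample each). Bars are the 74 switch exons and diamonds all 656 broadly expressed events. Inclusion among switch exons is highest in testis (39.2%) and brain (37.8%) and lowest in muscle and spleen (16.2% each), and skipping is highest in salivary (36.5%).

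Many of the exons had a single tissue on one of the sides, which does not place all other tissues on the opposite side. In 27 exons a single tissue was on the including side, and in 33 a single tissue was on the skipping side. In 7 exons both held, and in 21 there were 2 or more tissues on each side. Brain was the sole including tissue of 9 exons and testis of 7. Intestine and liver were sole includers of 3 each, heart and muscle of 2 each and salivary of 1, whereas kidney, lung and spleen were sole includers of none. Salivary was the sole skipping tissue of 7 exons and brain of 6. Intestine, muscle, spleen and testis were sole skippers of 4 each, and heart, kidney, liver and lung of 1 each. More tissues included than skipped in 35 exons, fewer in 26, and the numbers were equal in 13. In 44 exons 5 or more tissues lay between the limits. Only Ben31 and Ben1029 had no tissue between the limits, and they are described below. The counts of sole tissues rest on the index that chose the exons. Their share over all broadly expressed events is not given here, and nothing is read from them.

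**Figure D2:**
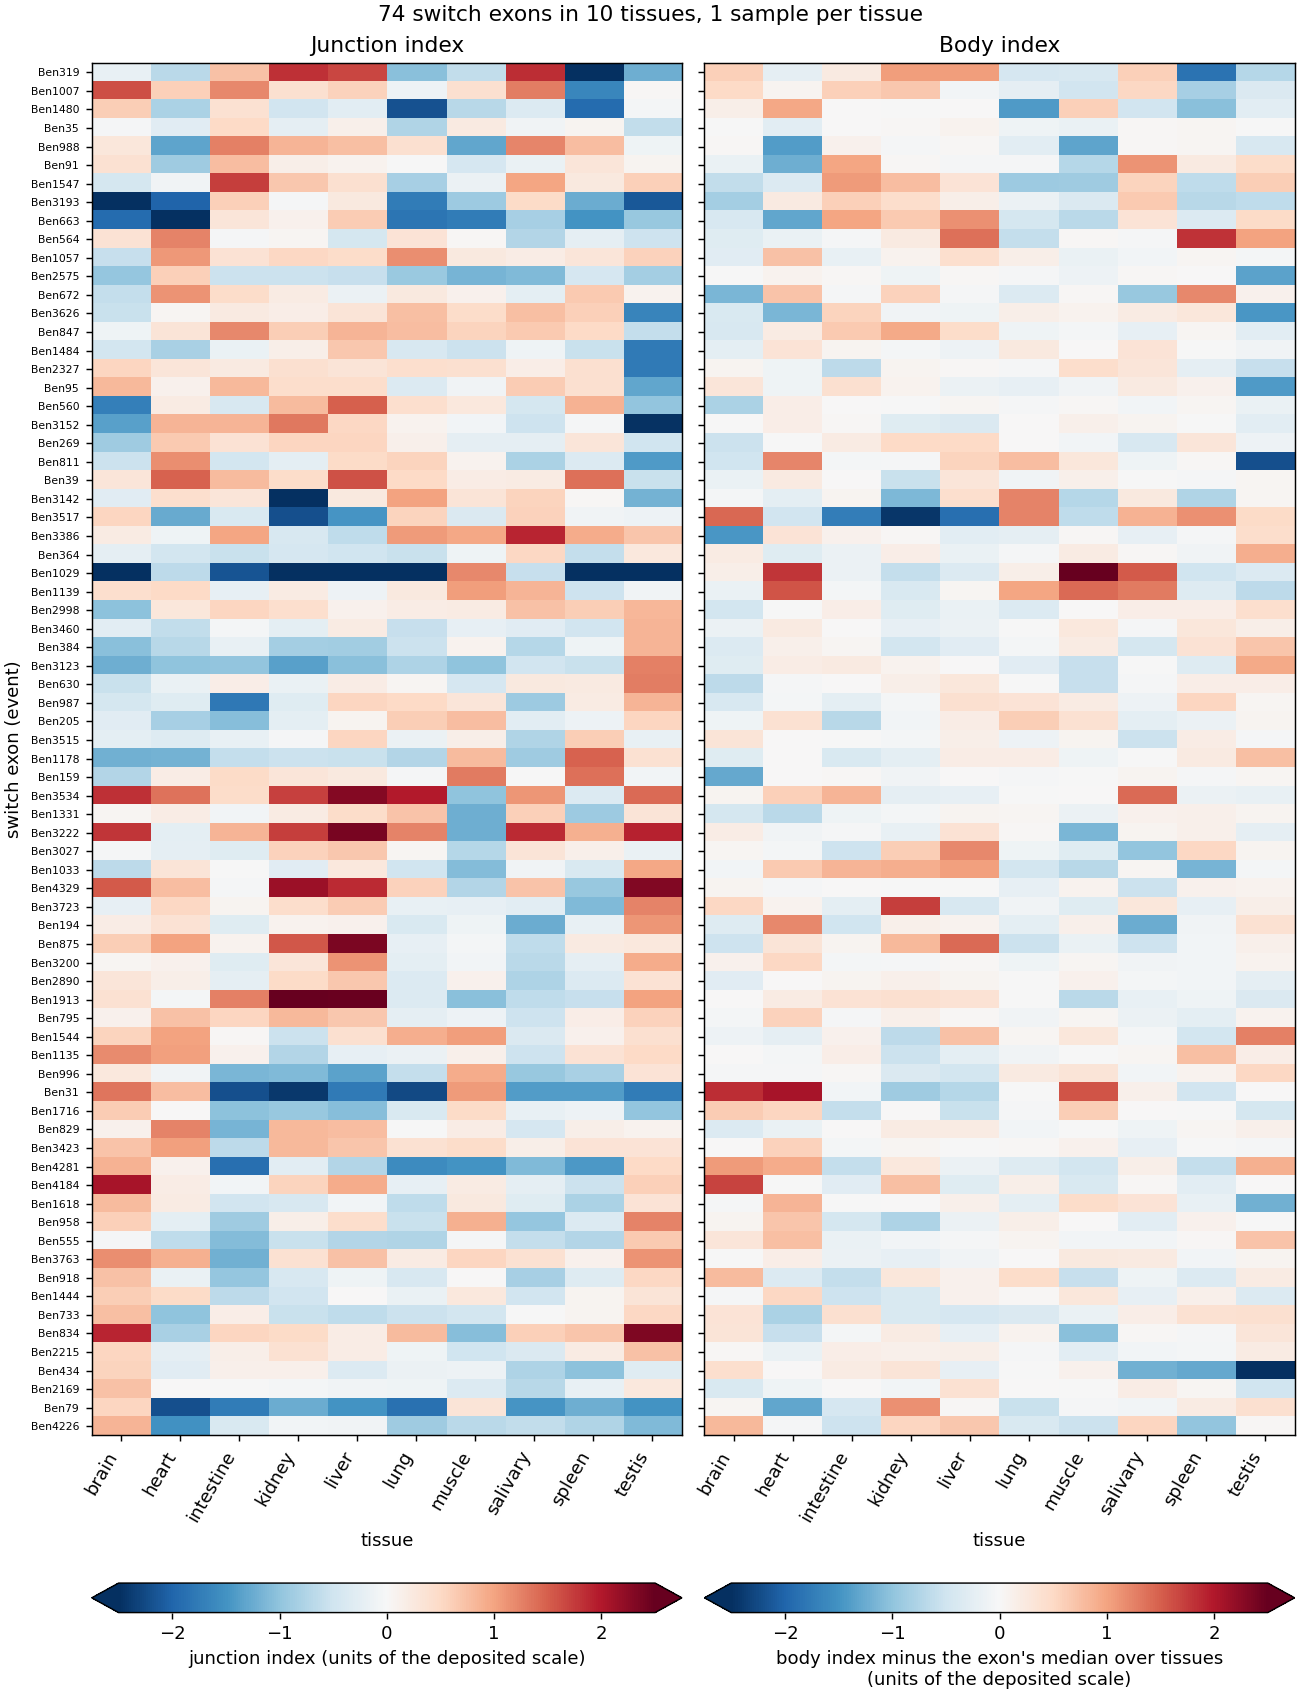
Junction index (left) and body index minus the exon's own median over tissues (right) of the 74 switch exons (rows, ordered by likeness of the junction index) in 10 tissues (columns, 1 sample each), in units of the deposited scale. Colours are capped at 2.5 units either way. Ben31 is high in brain, heart and muscle on both sides, and Ben1029 is high in muscle on both sides.

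Tissue pairs differed in how often they took the same side. Kidney and liver were on the same side in 28 switch exons (37.8%), 16 included in both and 12 skipped in both, and on opposite sides in 0. Over all broadly expressed events they shared the side of 63.9%. Their median absolute index difference was the smallest of the 45 pairs in the switch exons, at 0.29, and also small in the other events, at 0.21, so their likeness is not read as particular to switch exons. Lung and salivary shared the side of 22 exons (29.7%, against 54.9% of all broadly expressed events) and opposed each other in 4. Their index difference was the smallest of all pairs in the other events, at 0.16. Intestine and salivary shared 21 exons (28.4%, against 54.1% of all) and opposed each other in 4. Brain and testis shared 20 (27.0%, against 56.2% of all), of which 12 were included in both, but opposed each other in 12. Heart and liver also shared 20 (against 48.6% of all) and opposed each other in 6. Intestine and liver shared 20 as well (against 57.5% of all) and opposed each other in 5. By the rule, an event with tissues on opposite sides is always a switch exon, so opposite sides have no background in the other events. Intestine and kidney opposed each other in 2 exons. The most frequent opponents were brain and spleen, with 16 exons, 10 of them included in brain and skipped in spleen. Testis and salivary also opposed each other in 16, of which 11 were included in testis and skipped in salivary. Intestine and testis were opposed in 15 exons, and lung and testis in 14. Liver and muscle were also opposed in 14 exons, 9 of them included in liver and skipped in muscle. Muscle and kidney shared the side of 3 exons (4.05%, against 49.2% of all broadly expressed events) and were opposed in 12. Opposite sides outnumbered shared ones in 10 of the 45 pairs.

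**Figure D3:**
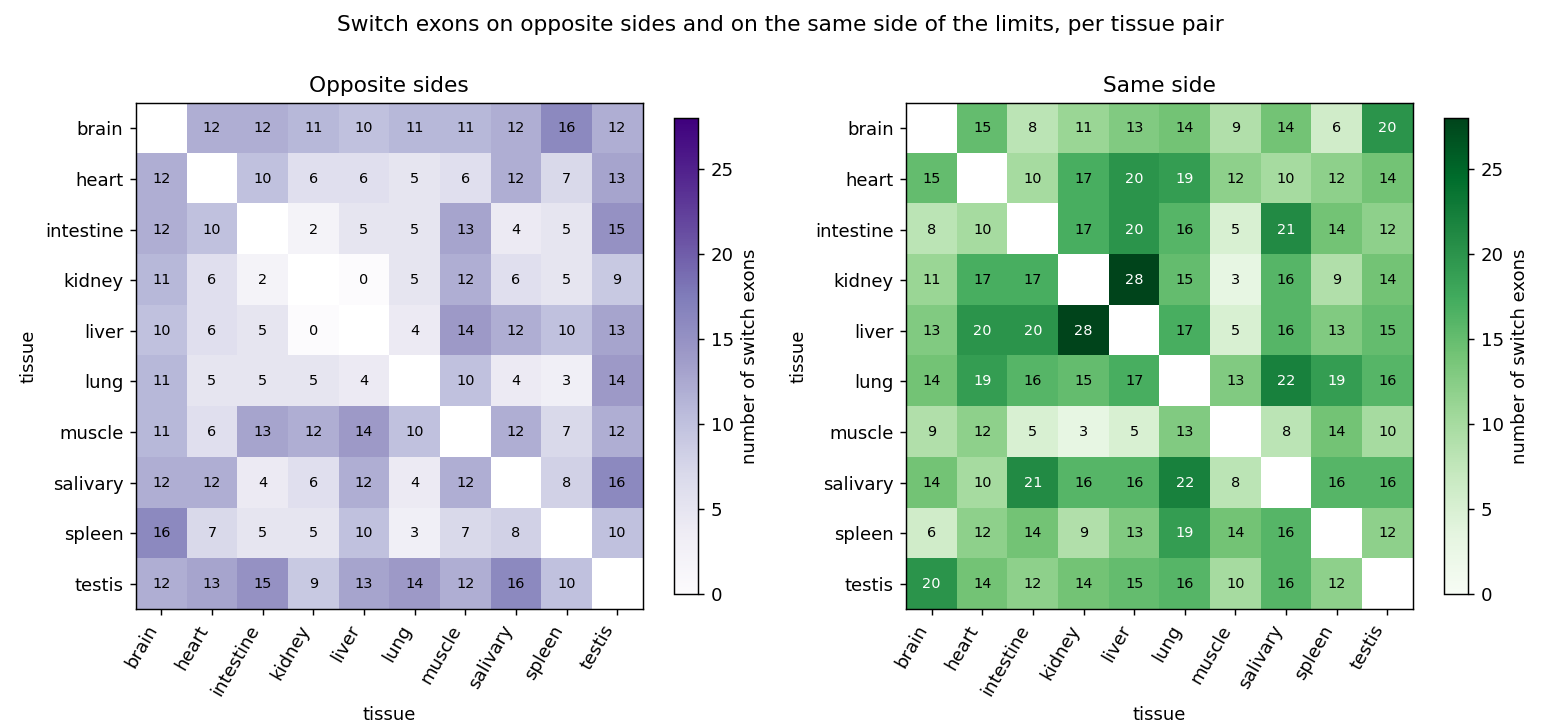
Number of switch exons for which the tissues of a pair (rows and columns) lie on opposite sides of the limits (left) and on the same side (right). Kidney and liver share the side of 28 exons and oppose each other in 0, whereas brain and spleen oppose each other in 16.

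The A probe, which lies in the body of the alternative exon, takes no part in the junction index and was used as a check. The body index is the A reading less the average reading of the flanks. In 69 of the 74 switch exons, 93.2%, the mean body index was higher in the including than in the skipping tissues, with a median difference of 0.64 and a range of -0.65 to 3.13. The difference was 1 or more in 26 exons and 2 or more in 5, and it was under 0.25 in 21. The A value alone was higher in the including tissues in 66 exons, with a median difference of 0.92. In the remaining 8 it was lower, although in all 8 the body index was higher.

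The same check between only the tissue of highest and the tissue of lowest index gave the higher body index to the first in 66 switch exons, 89.2%. Among the 582 other broadly expressed events this share was 65.5%. Those events varied less, with a median gap between highest and lowest index of 2.18 in switch exons and 1.20 in the others. Of the others, 326 had a gap of at least 1.12, the smallest of any switch exon, and their share was 70.6%, at a median gap of 1.63. The median body difference between these tissues was 0.87 in the switch exons and 0.37 in those 326 events. The gap still differed between the sets, and the difference of the shares was not tested. Counted tissue by tissue, the body index lay above the median of the exon's other 9 tissues in 144 of the 195 inclusions (73.8%) and below it in 147 of the 199 skippings (73.9%). Over all tissues of the other broadly expressed events, by construction of the median, it lay above in 50% and below in 50%. That is no background for included or skipped tissues alone, whose share in those events is not given here. Heart was the weakest tissue for skipping, with 9 of its 19 skippings below. In brain 17 of 18 were.

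**Figure D4:**
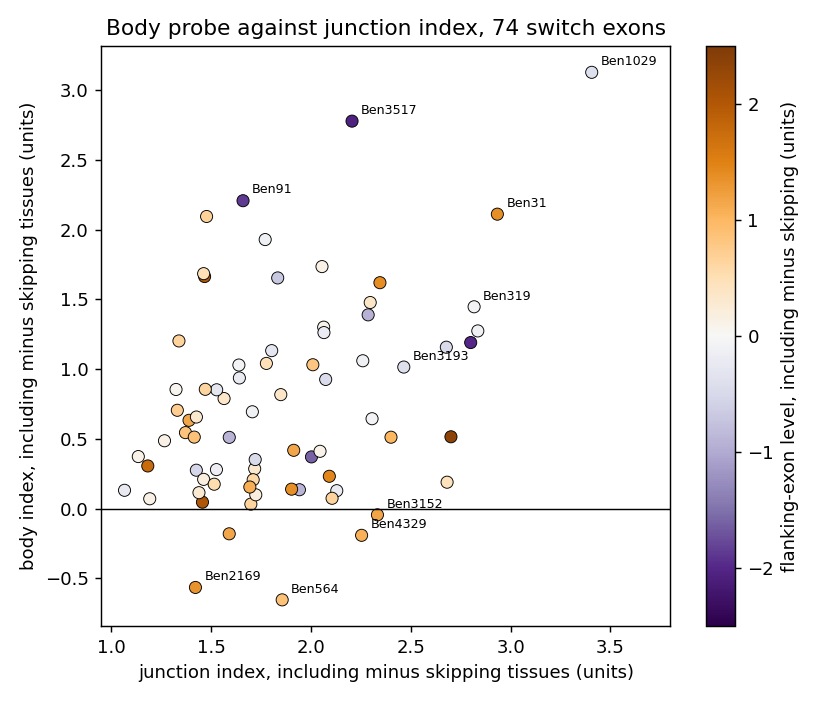
Body index difference (y axis) against junction index difference (x axis), each the mean of the including minus the mean of the skipping tissues, for 74 switch exons, in units of the deposited scale. Colour gives the same difference of the flanking-exon level, and the line marks 0. Of the points, 69 lie above the line, with Ben1029 highest at 3.13, and the 5 below it, down to Ben564 at -0.65, all have a higher flanking level in the including tissues.

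The body difference ran against the level of the flanking exons. That level was taken as the mean of C1 and C2 and was higher in the including tissues in 46 exons, with a median difference of 0.24. In the 37 exons whose level differed by less than 0.5 either way, a subset chosen after the values were seen, the body index was higher in the including tissues in all 37, with a median difference of 0.85. In the 16 exons whose level was higher by 1 or more in the including tissues, it was higher in 12, with a median of 0.27, and in the 4 exons whose level was lower by 1 or more it was higher in all 4, with a median of 1.70. The body index subtracts the level, so the measures share probes. Over the 10 tissues of each exon, the junction index and the body index correlated at a median r of 0.64 in switch exons, 0.34 in the other broadly expressed events and 0.44 in the 326 with a gap of at least 1.12. In 19 switch exons r was 0.8 or more and in 6 it was below 0, and these counts are not given for the other events. The points of each r share arrays and depth of signal, and r is given as a description.

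The probes that chose the exons are described next, without a test. In 45 of the 74 exons the inclusion junctions were on average higher in the including tissues and the skipping junction was lower. In 19 the inclusion junctions were higher and C1:C2 was not lower, and there the level was also higher by a median of 0.86. In 10 the inclusion junctions were not higher and C1:C2 was lower. The median differences were 0.87 for C1:A, 1.26 for A:C2 and -0.75 for C1:C2, against 0.13 for C1, 0.36 for C2 and 0.09 for INT. Both inclusion junctions were higher in 56 exons, of which 53 had the higher body index in the including tissues, with a median difference of 0.80. In 14 exons 1 inclusion junction was higher and the other lower, and their median body difference was 0.16, with 12 of 14 higher.

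Among the named exons, the largest gap belonged to Ben319, at 4.79 units between salivary and spleen. Its junction index was 1.84 in salivary, 1.82 in kidney, 1.66 in liver and 0.73 in intestine, against -2.95 in spleen, -1.23 in testis, -1.04 in lung, -0.68 in heart and -0.62 in muscle, with -0.18 in brain. C1:C2 read 1.72 to 2.58 in the including tissues and 4.49 in spleen, while C1:A read 2.14 to 4.12 in the including tissues and 1.24 in spleen. The flanking exons of spleen (4.88 and 4.65) were among the highest of all tissues. The body index ran from -1.18 to -0.36 in the including tissues and from -3.25 to -1.63 in the skipping ones, without overlap.

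Ben1029 was included in muscle alone. Its index was 1.20 in muscle, against -0.57 in salivary, -0.66 in heart, -2.16 in intestine, -2.55 in lung, -2.62 in testis, -2.66 in liver, -2.75 in brain, -2.82 in spleen and -3.06 in kidney. The A probe read 4.16 in muscle and 3.03 in heart, but 1.86 in salivary and 0.48 to 1.61 in the remaining tissues, while C1 and C2 read 3.47 to 5.59 in every tissue. A:C2 followed the same order at the top, with 4.26 in muscle and 3.25 in heart. In the body index, muscle read 0.03 and values were lower in every other tissue, down to -3.89 in kidney, with a difference of 3.13 between the including and skipping means, the largest of the 74. Heart, which counts as skipping by the limit, stood next in the body index, and salivary, at -1.75, followed. In 10 junction values of this exon the reading lay below the INT median of the array, so the lowest index values are not exact sizes.

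Ben31 joined the excitable tissues. Its index was 1.33 in brain, 1.06 in muscle and 0.76 in heart, against -1.39 in salivary, -1.39 in spleen, -1.74 in testis, -1.76 in liver, -2.21 in intestine, -2.26 in lung and -2.42 in kidney. The A probe read 4.58 in brain, 5.14 in muscle and 5.96 in heart, against 0.95 to 3.05 in the skipping tissues. C1:A read 3.55 to 4.78 in the including tissues, against -0.05 to 0.96 in the skipping ones, so the groups of tissues did not overlap in either probe. The flanking level was also higher in the including tissues, by 1.38, and C1:C2 was higher by 0.82. The body index, which allows for that level, was higher by 2.11. Brain had a flanking level of 3.73 and a body index of 0.85, against 4.06 and -1.01 in lung. Of its junction values, 12 lay below the INT median of the array.

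**Figure D5:**
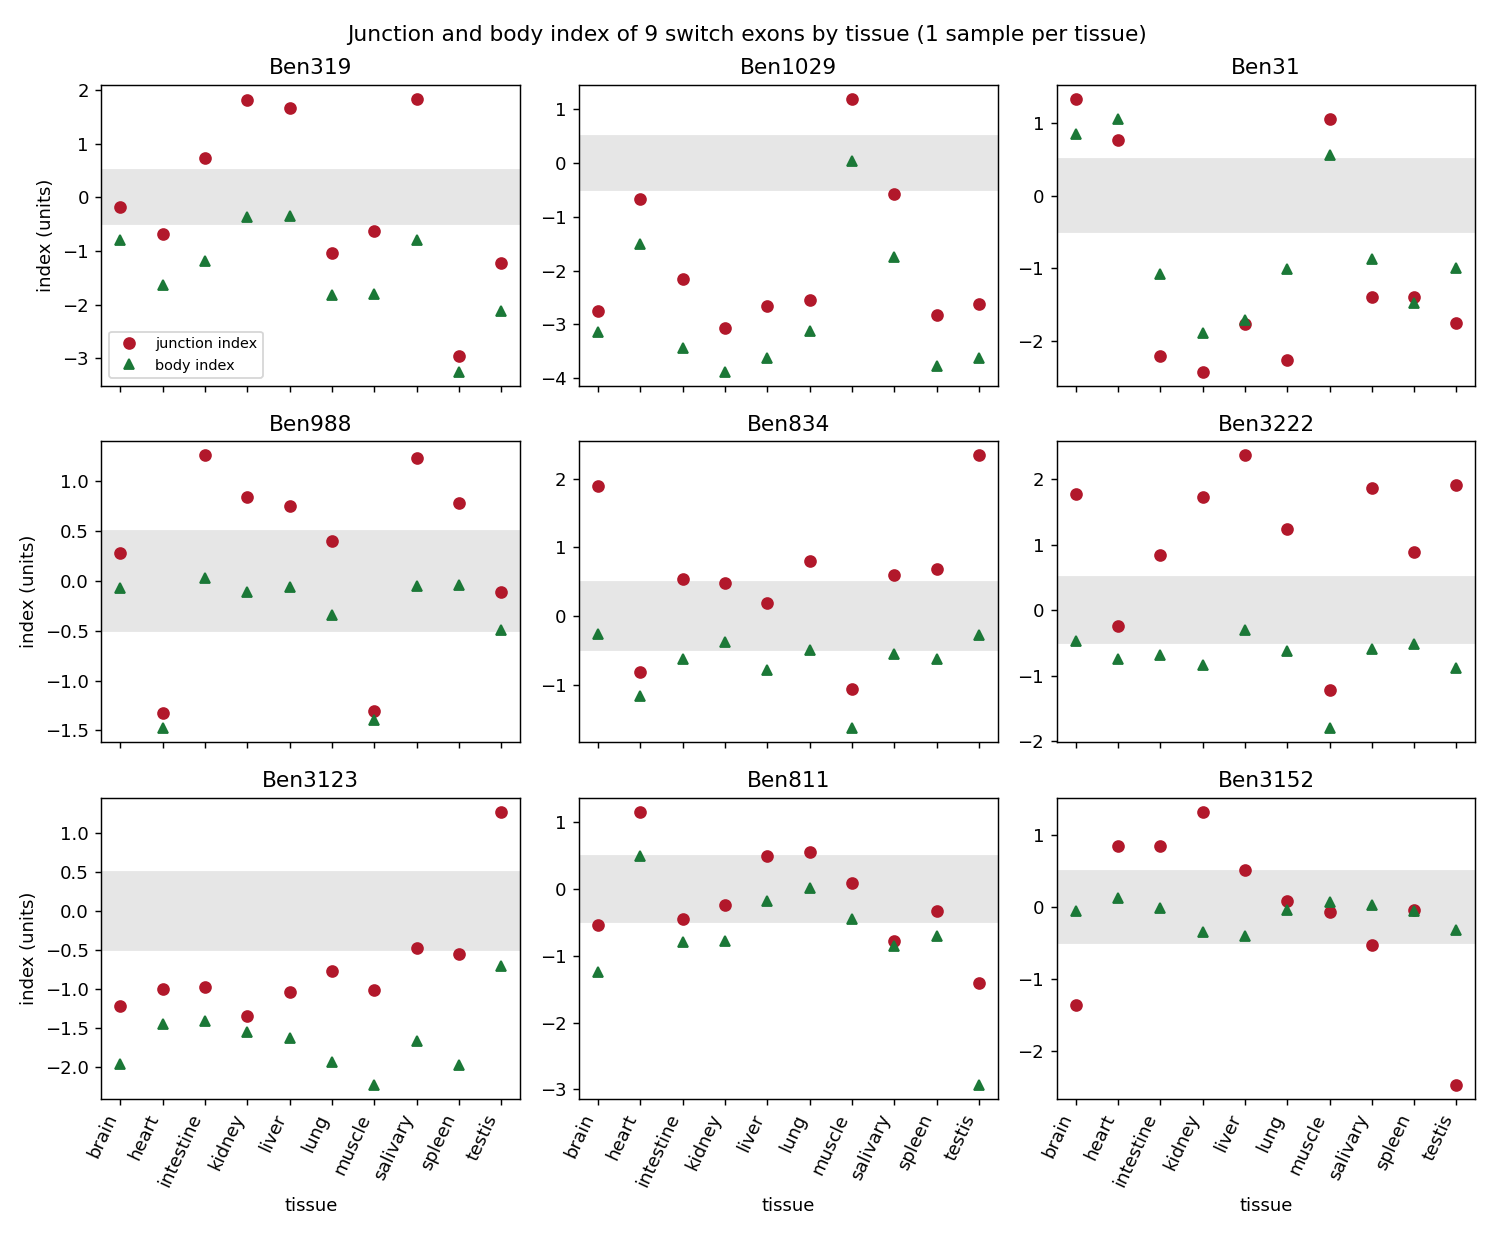
Junction index (circles) and body index (triangles) of 9 switch exons in 10 tissues (x axis, 1 sample each), in units of the deposited scale (y axis). The grey band spans the index limits of -0.5 and 0.5. In most of these panels the body index follows the junction index, as in Ben1029 (highest in muscle) and Ben988 (lowest in heart and muscle). In Ben3152 it does not. The panels were picked without a stated rule, so their share is not that of all switch exons. Over all switch exons, r between the junction index and the body index had a median of 0.64. It ran from -0.70 in Ben2169 to 0.98 in Ben1029.

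Heart and muscle skipped 9 of the switch exons together. Over the 45 pairs, joint skipping ran from 2 exons, in kidney and muscle, to 14, in lung and spleen. Its share over all broadly expressed events is not given here. Heart and muscle shared the side of 12 exons (16.2%), against 46.5% of all broadly expressed events. In each of the 45 pairs the switch exons had the lower share, so nothing is read from it. In 2 of the named exons heart and muscle, the striated muscles, had the lowest junction and body indices. Ben988 had an index of 1.26 in intestine, 1.23 in salivary, 0.84 in kidney, 0.78 in spleen and 0.75 in liver, against -1.32 in heart and -1.31 in muscle, with lung at 0.39, brain at 0.28 and testis at -0.12. Its body index lay between -0.49 and 0.02 in the other 8 tissues, against -1.48 in heart and -1.40 in muscle. The flanking level was 5.42 in heart, the highest, and 3.26 in muscle. Ben834 had its highest indices in testis (2.34) and brain (1.90), with 0.80 in lung, 0.69 in spleen, 0.59 in salivary and 0.53 in intestine, against -1.06 in muscle and -0.81 in heart. Its body index read -0.79 to -0.26 in all other tissues, against -1.63 in muscle and -1.16 in heart.

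Of the named exons, Ben3222 and Ben3534 had muscle as their sole skipping tissue. The index of Ben3222 lay between 0.85 and 2.37 in 8 tissues, against -1.22 in muscle, with heart at -0.25. C1:C2 read 5.11 in muscle, 2.28 units above the next tissue, and the flanking exons were also highest in muscle (4.68 and 5.68). The A probe read 3.38 there, above the 1.72 to 2.91 of the other tissues. The body index was -0.89 to -0.30 in the other tissues, against -1.81 in muscle. In Ben3534 the index was 0.46 in intestine and 1.10 to 2.29 in the 7 including tissues, against -1.01 in muscle, with -0.33 in spleen. Its C1:C2 read 4.79 in muscle and 4.93 in spleen, and A:C2 read 4.80 in muscle and 5.08 in spleen, whereas the body index of muscle, -0.78, lay within the -1.02 to 0.62 of the other tissues.

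This joint step of junction probes in muscle and spleen recurred. With a step defined, after the values were seen, as both arrays reading 1.5 units or more above the median of the other 8 tissues, 8 junction probes in 6 switch exons met it, namely Ben1178, Ben3534 and Ben4329 and, named after their values were seen, Ben159, Ben1331 and Ben1480. C1:C2 did so in 4 of the 74 (5.41%), against 2 of the 582 other broadly expressed events (0.344%). C1:A did so in 2 (2.70%), against 5 others (0.859%), and A:C2 in 2 (2.70%), against 3 others (0.515%). INT did so in 0 switch exons, against 8 others (1.37%). The rule selected on the junction probes, so nothing is read from these shares. No A probe and no C2 probe of a switch exon did so, and C1 did in Ben1480. Ben1178 was included in spleen (1.47) and muscle (0.78) and skipped in 7 tissues, from -1.20 in brain to -0.54 in kidney. This came from C1:A, which read 6.44 in muscle and 6.65 in spleen but 2.58 to 4.15 elsewhere, whereas A:C2 was lower in muscle (1.20) and spleen (1.21) than in the other tissues (1.44 to 3.07). Its A probe was at 1.85 in muscle and 1.61 in spleen, the lowest of the 10 tissues. The flanking levels there, 2.95 and 2.38, were the lowest as well. Its body index was -1.10 in muscle and -0.77 in spleen, against -1.38 to -0.79 in the skipping tissues. The mean body index was higher by 0.14 in muscle and spleen than in the skipping tissues. The same arrays stand apart in the INT probes, and the part of that in these indices was not tested. Without muscle and spleen, an alternative added after the data were seen, 74 exons met the rule, 60 of them shared with the 74, and the body index was higher in the including tissues in 91.9% of them.

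Kidney and liver included 16 switch exons together, and the share of joint inclusion over all broadly expressed events is not given here. In Ben1913 the index was 3.06 in kidney, 2.47 in liver, 1.26 in intestine and 1.01 in testis, against -1.04 in muscle, -0.64 in salivary and -0.57 in spleen, with 0.38 in brain, -0.04 in heart and -0.33 in lung. The flanking level followed, from 4.18 to 6.90 in the including tissues against 2.78 to 3.05 in the skipping ones, a difference of 2.36. C1:C2 differed by only -0.41, and the body index was higher by 0.52. In Ben560 the index was highest in liver, followed by 0.86 in spleen and 0.80 in kidney, against -1.71 in brain and -0.99 in testis. C1:C2 read 5.32 in brain, where the body index of -0.18 was the only one below 0. In Ben829 the index was 1.24 in heart, 0.82 in kidney and 0.78 in liver, against -1.16 in intestine, whose C1:C2 of 4.85 was the highest. The body index of intestine, -0.07, lay within the -0.42 to 0.13 of the other tissues, so the body index did not separate intestine from them.

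Kidney was on the other side in Ben3142, with an index of 1.01 in lung and 0.56 in salivary, against -2.93 in kidney and -1.18 in testis. C1:C2 read -0.05 to 1.33 in the other tissues, against 3.75 in kidney. The A probe read 3.31 in lung and 0.77 to 1.83 elsewhere, and the body index was highest in lung (-0.24) and lowest in kidney (-2.60). Of its 30 junction values, 25 lay below the INT median of the array, so most of its indices rest on readings near the floor of the array. Ben3193 was included in intestine alone, at 0.60, next to salivary at 0.47 and liver at 0.24, against -3.16 in brain, -2.11 in testis, -2.00 in heart, -1.76 in lung, -1.24 in spleen and -0.90 in muscle. The body index was -1.17 in intestine and -2.63 to -1.55 in the skipping tissues, with salivary highest at -1.13, and 13 of its junction values lay below the INT median.

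Testis was the sole including tissue of Ben3123, with an index of 1.27, against -1.35 to -0.48 in the other 9 tissues. The switch came from a single junction. C1:A read 6.90 in testis and 1.69 to 2.57 elsewhere, whereas A:C2, at 2.49, lay within the 2.03 to 2.91 of the others and C1:C2, at 3.43, within 3.05 to 3.71. The A probe was nevertheless highest in testis, at 2.38 against 0.94 to 1.85, and so was the body index, at -0.71 against -2.23 to -1.42. In Ben194 the index was 1.10 in testis, against -1.24 in salivary, with -0.38 to 0.35 in the other tissues. Its C2, A and A:C2 probes were all lowest in salivary, at 2.34, 2.05 and 2.03, whereas C1 and C1:A, at 4.73 each, were not. Testis (0.13) had a higher body index than salivary (-1.49), but heart, at 0.95, exceeded both.

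Testis skipped Ben811 and Ben3152. The index of Ben811 was 1.16 in heart and 0.56 in lung, against -1.41 in testis, -0.78 in salivary and -0.54 in brain. Its flanks were high in every tissue, from 3.83 to 6.28, and highest in testis. The A probe read 4.79 in heart and 5.67 in lung, against 3.24 in testis, 3.69 in salivary and 3.35 in brain. The body index was 0.49 in heart and 0.02 in lung, against -2.93 in testis, -0.85 in salivary and -1.24 in brain. The inclusion junctions disagreed in testis, where A:C2, at 2.90, was the lowest of the 10 tissues and C1:A, at 6.12, the highest. In Ben3152 the index was 1.33 in kidney, 0.85 in heart, 0.84 in intestine and 0.52 in liver, against -2.47 in testis, -1.35 in brain and -0.52 in salivary. C1:C2 read 5.14 in testis and 3.47 in brain, but the body index spanned only -0.40 to 0.12 over all tissues and was lower by 0.04 in the including ones.

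Brain led the inclusion of Ben1007, with 1.61, followed by salivary at 1.28, intestine at 1.19, heart at 0.59 and liver at 0.58, against -1.63 in spleen. In spleen C1:C2, at 3.12, and C2, at 4.75, were the highest of the 10 tissues. The body index was -1.68 to -0.54 in the other tissues, against -2.04 in spleen. Ben3763 was included in brain (1.17), testis (1.12), heart (0.88), liver (0.73) and muscle (0.54), against -1.20 in intestine. Its level was higher by 1.46 in the including tissues, and the body index of intestine, -0.33, was not the lowest, as kidney read -0.37. Ben3723 was included in testis (1.24), liver (0.63) and heart (0.51), against -1.11 in spleen, and A:C2 read 1.93 to 4.25 in the other tissues, against 0.56 in spleen. The body index of spleen, 0.44, lay within the 0.23 to 2.36 of the other tissues.

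The exons whose body index most opposed the junction index were Ben564, Ben2169 and Ben4329. Ben564 was included in heart (1.24), against -0.73 in salivary and -0.51 in testis. The body index was 1.69 in heart, against 1.83 in salivary and 2.86 in testis, and A exceeded both flanks in every tissue. Ben2169 was included in brain (0.72), against -0.70 in salivary. The body index was -0.57 in brain and -0.01 in salivary, and the flanking level was 4.37 in brain and 3.03 in salivary. Ben4329 was included in 7 tissues, from 2.32 in testis to 0.58 in lung, against -0.95 in spleen and -0.73 in muscle. Its body index was between -0.60 and 0.02 in the including tissues, against 0.04 in spleen and 0.03 in muscle, and its C1:C2 was one of the probes that stepped in muscle and spleen. The 5 exons with the opposite body sign also included Ben3152, at -0.04, and Ben1484, at -0.18, which is named after its values were seen.

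Junction probes that read at least 1.5 units higher in 1 tissue than in any other were also counted. There were 12 of them in 10 exons, 4 in testis, 3 in brain, 2 in kidney and 1 each in heart, liver and muscle. These are 13.5% of the switch exons, against 7.56% of the other 582 events with such a probe, and as the members were chosen on the same probes nothing is read from the difference. In Ben2327, named here after its values were seen, both C1:A (6.16) and C1:C2 (5.78) stepped in testis, against at most 3.33 and 3.15 elsewhere, while A was 2.09 in testis and 2.28 to 3.77 in the others. It was included in brain alone, at 0.53, and skipped in testis alone, at -1.77. In Ben4184, named for the same reason, C1:A and A:C2 both stepped in brain, to 5.06 and 6.04, and A followed, with 5.72 in brain against 1.12 to 2.80. Its index was 2.07 in brain, against -0.53 in spleen, with liver at 0.92, testis at 0.59 and kidney at 0.56 also on the including side.

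The index and level limits divided a continuous range. Ben35 and Ben364 entered with highest indices of 0.506 and 0.512, whereas Ben1819 and Ben68 stayed out at 0.495 and 0.494. At the other limit Ben2215 and Ben795 entered with lowest indices of -0.505 and -0.516, and Ben460 and Ben4202 stayed out at -0.490 and -0.460. Ben4329 and Ben3152 had lowest flank readings of 2.104 and 2.105, and Ben1841 and Ben4075, which switched by the index, fell short at 2.098 and 2.093. With 1 in place of 0.5 as the limit on both sides, 19 exons met the rule, and under the stricter demand on junction signal, set by the 95th percentile of INT, 28 did.

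The switch exons and the other broadly expressed events were also set side by side in level, body index and INT. The rule put a floor under C1 and C2, which enter the level and the body index, and selected on the junctions, whereas A and INT played no part in it. The median flanking level of the switch exons was 3.26, against 3.51 in the other 582, and it ranged over tissues by a median of 1.60 units, against 1.66. The body index ranged by a median of 1.38 in switch exons and 0.955 in the others. The median INT reading was 1.37 and 1.25. Junction values below the INT median of the array made up 8.06% in switch exons and 10.3% in the others. Of the 74 switch exons 41 had no such value, a count not given for the others. Of their 4440 exon and junction values, 18 were listed at 0 in the deposited table. No test was made of these differences, since each event is measured on the same 10 arrays.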

How the data were processed

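A splicing array measured 1 pooled RNA sample from each of 10 tissues of CD1 mice. The authors deposited 21882 probe values per sample as a score between 0 and 8.66, whose unit and base, with the steps before deposit, were not given in the sources used here. Values were read per event as C1, A, C2, C1:A, A:C2, C1:C2 and INT from the probe names. Each array was centred on its median and the mean of the medians was added back, which leaves both indices unchanged. It moves the level filter and comparisons of single probes or flanking levels between tissues. The rule, the members and the named exons were chosen with earlier results of these data known. Named exons were the 8 with the largest index gap, those at 1 or more in one tissue and -1 or less in another (19), the 3 most opposed in body index, and those next to each limit. No model was fitted, since tissues have no replicates, and precision is limited by having 10 arrays. The planned lists of marker genes were not applied, as events carry no gene names here. The selection code was run on simulated data, with shifts of the same sign put into the inclusion junctions and A. That run checked the code only and does not bear on the body check. Alternatives changed the level floor, the limits, the junctions, the scaling and the tissues used. The tools were pandas 2.3.3 and numpy 2.4.6 for values, scipy 1.17.1 for intervals and matplotlib 3.10.9 for plots, under Python 3.11.15.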

Additional observations from a re-analysis of the deposited data

How the results depend on the processing

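Switch exons numbered 121 with a level floor of 1.8 and 35 with 2.4, 122 with index limits of 0.3 and 19 with limits of 1, and 28 with junctions above the 95th percentile of INT, as looser or stricter rules give by construction. When A:C2 alone stood for inclusion there were 102, 46 shared with the main 74, and with C1:A alone 74, of which 47 were shared. Columns as deposited gave 69 and quantile normalization 75, and leaving out single tissues gave 63 (without brain) to 80 (without spleen). Raising junction values to the INT median, added after the data were seen, gave 69. The share with the higher body index in including tissues was 78.4% with A:C2 alone, 83.8% with C1:A alone, 79.5% with limits of 0.3 and 100% (37 of 37) where level differed by under 0.5, a subset chosen after the data were seen, and otherwise 85.7% to 97.1%. The causes were not tested.

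Of 200 tissue shares over 10 alternatives, 12 left the 95% exact binomial interval of the main share. That interval is wide (up to 51.2% for inclusion in testis) and treats exons of shared arrays as independent, so staying inside it does not show stability. Under quantile normalization testis included 30.7%, against 39.2%. With limits of 1, heart included 15.8% and skipped 10.5%, spleen included 5.26%, lung skipped 15.8% and salivary skipped 10.5%. With limits of 0.3, kidney included 41.8% and liver 47.5%. With A:C2 alone, kidney included 37.3% and salivary 13.7%, and with C1:A alone muscle included 27.0%. With junctions above the 95th percentile of INT, liver included 50% and salivary skipped 50%. No paired analysis was possible because the tissues hold a single sample each, without shared animals in the labels.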
